A study of Mus musculus with 6 samples.

Results

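Junctional and leukocyte adhesion molecules are described here as 9 genes chosen by name among the 35237 genes of the FPKM table and the 36536 of the ALEXA-Seq table. They are F11r, Jam2, Jam3, Cadm1, Pecam1, Icam1, Icam2, Selplg and Cd44, and each had an entry in both tables. The study set bone marrow-derived monocytes (BMDM) against brainstem microglia (BSM) by RNA sequencing, to find surface markers that tell the blood-borne cells from the resident ones. Among its candidates, it chose F11r and Cadm1 on these libraries together with microarrays, which held further sets of cells. Both were then measured by PCR in independently generated cells, and F11r was followed further by flow cytometry. The F11r and Cadm1 differences here are therefore descriptions of genes the study selected. Both cell types came from 6-week-old C57BL/6 mice of no stated mutation or treatment, and they were sorted by flow cytometry without culture. BMDM were taken as CD11b-positive, CD45-high, CD115-positive cells and BSM as CD11b-positive, CD45-low, CD115-low cells, both without Ly6G. Cells of several mice were pooled for each set. There were 3 libraries of each cell type, labelled biological replicates. Replicate 1 of each cell type was labelled male and replicates 2 and 3 female, while the study's text speaks of male mice, and these sources were not reconciled here. Sex, as labelled, and library 1 cannot be told apart. In the study's RNA quality notes, BSM replicate 1 also had the lowest RNA integrity and concentration of the 6 samples, and the part of this in the results was not tested. The RNA was amplified before sequencing.

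The members hold cells to each other, to vessel walls and to matrix. Junctional adhesion molecules (JAMs) and CADM1 are immunoglobulin-superfamily proteins that bind like molecules on the neighbouring cell. The JAMs also anchor to scaffold proteins such as ZO-1 and serve leukocyte integrins as counter-receptors. PECAM-1 and the ICAMs are known from the endothelium and from leukocytes, where ICAM-1 and ICAM-2 bind the integrin LFA-1. PSGL-1, encoded by Selplg, is the selectin ligand on which leukocytes roll, and CD44 is the main receptor for hyaluronan.

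In the FPKM values, which are scaled for gene length and library size, the positions were given on mm9. F11r spanned 27069 bases (chr1:173367666-173394734) and Jam2 51806 bases (chr16:84774368-84826173). Jam3 (chr9:26904970-26962965), Cadm1 (chr9:47338256-47665720) and Icam1 (chr9:20820429-20833252) lay on the same chromosome, and Pecam1 (chr11:106515531-106611942) and Icam2 (chr11:106238970-106249389) on another. Selplg (chr5:114268545-114280440) lay 18169 bases from Tmem119, a microglial membrane protein gene, and 12007 bases from Coro1c on the other side. Cd44 was at chr2:102651298-102741822.

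Promoter sequence from RefSeq was matched for 3 of the 9 genes, and the 250 bases before each RefSeq start are shown because these genes cover the strongest difference in either direction (F11r, Cd44) and the weakest one that passed the test (Icam1). Each is written 5′ to 3′ on the gene's strand of GRCm38.p6, a later build than that of the tables. Capitals mark matches on either strand to the GC box (GGGCGG), the core of the binding site of PU.1, a macrophage lineage factor (GAGGAA), the TATA box (TATAAA) and the element read by STAT factors (TTCNNNGAA).
F11r (chr1:171437311-171437560, plus strand): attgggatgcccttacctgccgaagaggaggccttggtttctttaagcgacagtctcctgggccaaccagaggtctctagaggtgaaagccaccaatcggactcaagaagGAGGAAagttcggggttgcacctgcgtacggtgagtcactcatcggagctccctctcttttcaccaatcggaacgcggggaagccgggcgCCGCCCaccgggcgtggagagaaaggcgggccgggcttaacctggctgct
Cd44 (chr2:102901666-102901915, minus strand): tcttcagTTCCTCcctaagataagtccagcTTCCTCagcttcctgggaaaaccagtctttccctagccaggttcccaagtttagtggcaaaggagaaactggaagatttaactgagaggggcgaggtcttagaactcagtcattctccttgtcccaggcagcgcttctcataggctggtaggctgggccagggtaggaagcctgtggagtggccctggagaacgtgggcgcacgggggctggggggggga
Icam1 (chr9:21015690-21015939, plus strand): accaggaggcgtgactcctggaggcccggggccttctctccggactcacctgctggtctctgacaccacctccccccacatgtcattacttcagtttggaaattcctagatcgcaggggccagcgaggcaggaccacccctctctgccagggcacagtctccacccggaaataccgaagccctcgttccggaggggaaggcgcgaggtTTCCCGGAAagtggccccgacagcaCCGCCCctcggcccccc
The F11r window held 1 GC box and 1 PU.1-type core, at 140 to 135 bases before the start. The Cd44 window held 2 PU.1-type cores and no GC box, and the Icam1 window held 1 GC box and, 42 to 34 bases before the start, 1 STAT-type element. Of 32851 promoter windows of this length, 32.7% held a GC box, 23.3% a PU.1-type core, 12.4% a TATA box and 7.02% a STAT-type element, and no TATA box was found in these 3. CpG pairs numbered 17 in F11r, 15 in Icam1 and 5 in Cd44, beside a median of 6 over all windows. No Icam1 transcript of GENCODE M21 held the bases that follow the Icam1 window, so for Icam1 the positions count from the RefSeq start alone. The matches are letters in a window and were not read as bound sites.

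The study's own PCR primers for F11r and Cadm1 are shown because they place the transcript part by which these genes can be measured apart from the libraries.
F11r forward: gtgcttgtacctccatccaagccg
F11r reverse: gagggtggggaaccatcatgctc
Cadm1 forward: accaccatcacagtcctggttcct
Cadm1 reverse: tgctggccatggcagtacagttg
In GENCODE M21 transcripts the F11r pair enclosed 104 bases, with the forward primer across the join of exons 4 and 5, and matched the only coding transcript. The Cadm1 pair enclosed 109 bases, with the forward primer across exons 3 and 4, and matched 6 of 7 coding transcripts. Neither pair matched a transcript of another gene.

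The cell types matched their labels. All 8 microglial markers were higher in BSM and passed the test, and their summed level was 774 to 862 FPKM in BSM beside 17.6 to 19.7 in BMDM. All 6 marrow monocyte markers were higher in BMDM and passed, with sums of 686 to 881 FPKM beside 0.901 to 1.62. Summed FPKM over all genes ran from 163199 to 194184 in BMDM and from 68287.8 to 75021.4 in BSM, and BSM replicate 1 had 472 of the 6364 tested genes at 0, beside 51 to 115 in the other libraries. Read totals per library were not used here. In such bulk libraries, fewer cells of a type and less RNA per cell cannot be told apart.

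Genes were tested with limma on log2(FPKM + 1) where at least 1 library reached an FPKM of 3, and p-values were adjusted by Benjamini-Hochberg over the 6364 genes that did. Of the 9 members, 6 reached the minimum: F11r, Jam2, Cadm1 and Icam1 in BSM only, Cd44 in BMDM only and Selplg in both. All 6 passed the test, Cd44 with the higher level in BMDM and the other 5 with the higher level in BSM. Over all tested genes 45.3% were called higher in BMDM and 9.22% higher in BSM. Without BSM replicate 1, each of the 6 kept its direction and call by FPKM. Because 5 of the 6 were tested through their higher cell type alone, this count is a description. Over all 9 members, every BMDM library lay above every BSM library for Cd44 and Icam2 (55.2% of tested genes did so), every BSM library lay above every BMDM library for F11r, Jam2, Cadm1, Icam1 and Selplg (11.6%), and Jam3 and Pecam1 overlapped. With 3 libraries in each group, a two-sided exact permutation test of 1 gene has a smallest p of 0.1, and this value was reached for each of the 7 members without overlap.

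**Figure D1:**
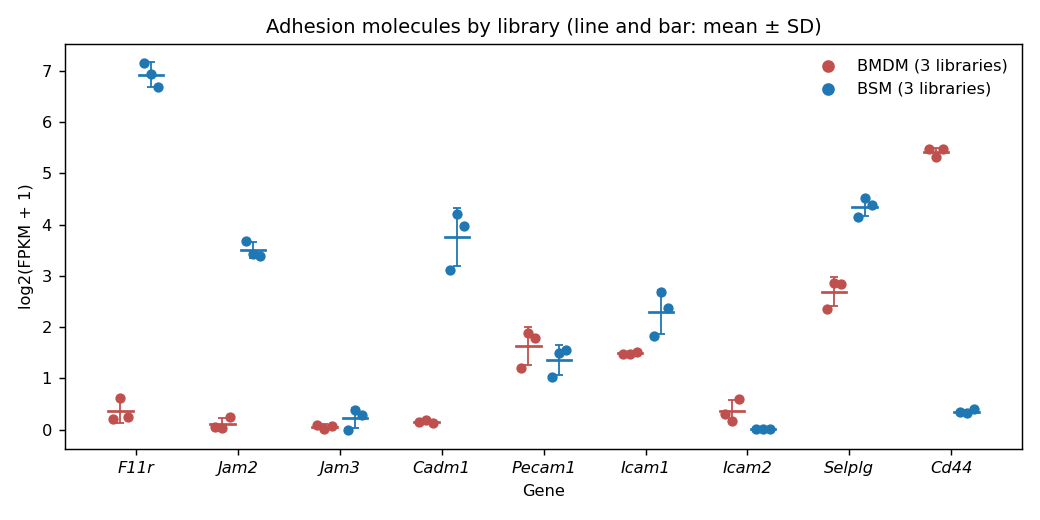
Level of each adhesion molecule in the 6 libraries, as log2(FPKM + 1), with points for libraries, a line for the mean and a bar for 1 SD. F11r stood highest in BSM and Cd44 in BMDM, while the points of Jam3 and Pecam1 overlapped between the cell types.

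F11r encodes JAM-A, the JAM of tight junctions, platelets and leukocytes. Its FPKM was 0.160, 0.534 and 0.187 in BMDM replicates 1 to 3 and 142, 121 and 102 in BSM replicates 1 to 3. Each BSM library lay far above each BMDM library. The means were 0.294 ± 0.209 in BMDM and 122 ± 20.1 in BSM (SD, n = 3), a ratio of 415, and the ratio was 702 without BMDM replicate 2, which held the highest of the 3 low BMDM values. On the log2(FPKM + 1) scale F11r was lower in BMDM by a fold change of -6.57 (SE 0.24, limma, adjusted p = 2.59e-06). Of 6364 tested genes, it had the fifth most negative value.

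Jam2 encodes JAM-B, which binds JAM-C and the integrin VLA-4. Its FPKM was 0.0351, 0.0184 and 0.185 in BMDM and 11.8, 9.79 and 9.49 in BSM. The BSM libraries differed little among themselves, and none came near a BMDM value. The log2 fold change was -3.39 (SE 0.23, limma, adjusted p = 2.73e-05). The ratio of the means was 131, and it was 387 without BMDM replicate 3, the BMDM library with the highest value.

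Jam3 encodes JAM-C, which binds JAM-B and the integrin Mac-1. It stayed low throughout, with FPKM of 0.0712, 0.00853 and 0.0482 in BMDM and 0, 0.298 and 0.219 in BSM. The BSM library listed at 0 was replicate 1, so the cell types overlapped. Jam3 missed the minimum and was not tested. In the later annotation, 28.1% of its longest transcript had a match of at least 95% identity over 100 bases or more in another gene (Gm48796), so its reads may be divided.

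The JAM genes together summed to 0.416 ± 0.147 FPKM in BMDM and 132 ± 21.2 in BSM. F11r made up 92.0% ± 0.577 of that sum in BSM, between 91.3% and 92.3% in each library. In BMDM its share ran from 44.6% to 95.2% of a sum that was at most 0.561 FPKM, and the difference in share gave p = 0.4 by the exact permutation test. Jam2 made up 7.87% ± 0.543 of the sum in BSM.

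Cadm1 encodes an adhesion molecule, also called SynCAM1, that binds nectin-like partners and itself. Its FPKM was 0.117, 0.140 and 0.0912 in BMDM and 7.73, 17.4 and 14.8 in BSM. BSM replicate 1 was the lowest BSM library and still lay above every BMDM library. The log2 fold change was -3.61 (SE 0.32, limma, adjusted p = 8.41e-05), and the ratio of the means was 114. An unnamed entry inside the Cadm1 locus (ENSMUSG00000074363) was at 0 in the BMDM libraries and at 14.8, 2.70 and 2.37 FPKM in BSM, highest in the library in which Cadm1 was lowest. Whether reads were divided between the entries was not tested.

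Pecam1 encodes CD31, a molecule of endothelial cells, platelets and leukocytes. Its FPKM was 1.32, 2.71 and 2.45 in BMDM and 1.04, 1.81 and 1.93 in BSM. The ranges overlapped, and no library reached the minimum of 3. With the minimum lowered to 1 its log2 difference was 0.27 (limma, adjusted p = 0.446). Scaling each library to the same summed FPKM turned the difference to -0.59 and upper quartile scaling to -0.29, so no direction was given for Pecam1.

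Icam1, whose product binds LFA-1 and Mac-1 and is known to rise in inflammation, was moderately low in both cell types. Its FPKM was 1.78, 1.79 and 1.86 in BMDM and 2.57, 5.47 and 4.16 in BSM. The BMDM libraries were nearly equal, while the BSM libraries spread widely, with replicate 1 the lowest. The log2 fold change was -0.81 (SE 0.28, limma, adjusted p = 0.0409), and the ratio of the means was 2.24. The call was lost without any single library other than BSM replicate 1, with adjusted p of 0.0961 to 0.164, and also with a pseudocount of 0.1 (0.0539), with no minimum (0.0828) and with a replicate block (0.0514). It held under each of the 3 scalings, with adjusted p from 0.00123 to 0.00687. A match to another gene (Gm47079) covered 20.2% of its longest transcript.

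Icam2, the constitutive LFA-1 ligand of endothelium and leukocytes, was scarce. Its FPKM was 0.236, 0.119 and 0.523 in BMDM and 0.0120, 0.0152 and 0.0124 in BSM. Every BMDM library was higher, and the ratio of the means was 22.2, or 13.4 without BMDM replicate 3. Icam2 missed the minimum. With no minimum, the limma fit gave adjusted p = 0.0985 by FPKM and 0.0291 by ALEXA-Seq. The difference between Icam2 and Icam1 within a library, on the log2(FPKM + 1) scale, was -1.13 ± 0.21 in BMDM and -2.28 ± 0.43 in BSM, and the ranges did not overlap (exact permutation p = 0.1). On this scale Icam2 differed between the cell types by 0.34 and Icam1 by -0.81. The larger part of this contrast by FPKM was thus the Icam1 difference, whose call was lost under several alternatives. By ALEXA-Seq, on log2(value + 1), the larger part was the Icam2 difference, at 1.98 beside -1.29 for Icam1. Which gene gave the larger part therefore differed between the quantifications.

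Selplg, the PSGL-1 gene, was the only tested member above the minimum in both cell types. Its FPKM was 4.13, 6.23 and 6.22 in BMDM and 16.8, 21.8 and 19.7 in BSM. The lowest BSM library lay well above the highest BMDM library. The log2 fold change was -1.66 (SE 0.25, limma, adjusted p = 0.00113) and the ratio of the means 3.52. Its neighbour Tmem119 was at 0.0497 FPKM in BMDM and 16.3 in BSM. The nearer neighbour on the other side, Coro1c, went the other way, at 13.5 FPKM in BMDM and 3.21 in BSM. Matches to other genes covered 5.92% of the longest Selplg transcript.

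Cd44 was the member higher in BMDM by the widest margin. Its FPKM was 43.2, 39.0 and 43.3 in BMDM and 0.269, 0.253 and 0.317 in BSM. The libraries of each cell type were close to each other, with an SD of 2.48 around 41.8 in BMDM and of 0.0330 around 0.280 in BSM. The log2 fold change was 5.06 (SE 0.21, limma, adjusted p = 2.91e-06) and the ratio of the means 150. Reads of an unnamed entry inside the locus (ENSMUSG00000065683) were at 2.81 FPKM in BMDM and 0 in BSM.

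The second quantification of the same libraries by the study, ALEXA-Seq, is not an independent replicate. By ALEXA-Seq all 6 tested members passed again, 1 higher in BMDM and 5 higher in BSM, where 37.1% and 10.9% of tested genes were called in those directions. Non-overlap took the same form for the 9 members, beside 51.5% of genes with BMDM higher and 14.6% with BSM higher. The F11r signal was 2.94, 11.3 and 3.37 in BMDM and 3311, 2674 and 2288 in BSM. The Cd44 signal was 568, 508 and 532 in BMDM and 3.45, 3.07 and 4.37 in BSM. Both genes kept wide gaps between the cell types. On log2(signal + 1), limma fold changes were -8.84 for F11r, -6.07 for Jam2, -5.16 for Cadm1, -1.91 for Selplg, -1.29 for Icam1 and 6.87 for Cd44, with adjusted p from 1.91e-05 to 0.0159. The largest of these was that of Icam1, which lost its call without BMDM replicate 3, BSM replicate 2 or BSM replicate 3 (limma, adjusted p of 0.0521 to 0.0666). The ALEXA-Seq values are on a larger scale than FPKM, on which a pseudocount of 1 weighs less, so the sizes of the 2 tables are not set against each other.

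**Figure D2:**
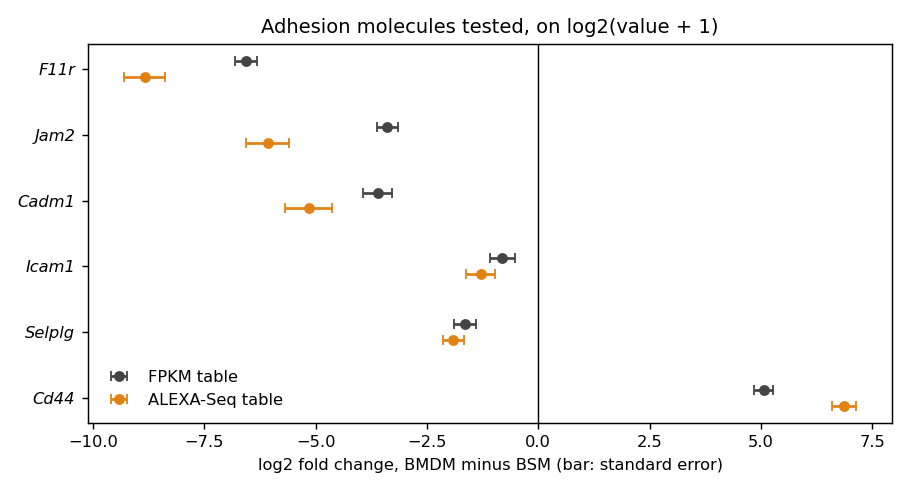
Fold change of the 6 tested adhesion molecules, BMDM minus BSM on log2(value + 1), with bars for the standard error, in the FPKM and ALEXA-Seq tables. Cd44 lay to the right of 0 and the other 5 to the left in both tables, with Icam1 nearest to 0.

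Since FPKM is per length, the levels can also be ordered between genes. In BMDM, Cd44 (41.8 FPKM) lay above Selplg (5.53), which lay above Pecam1 (2.16) and Icam1 (1.81), whose ranges overlapped. The remaining 5 members were under 0.294 FPKM on average, and neighbours in the order F11r, Icam2, Cadm1, Jam2 and Jam3 were not separated. In BSM, F11r (122 FPKM) lay above Selplg (19.5), Cadm1 (13.3) and Jam2 (10.4), where neighbours overlapped. Icam1 (4.07) and then Pecam1 (1.59) followed with separated ranges, and Cd44 (0.280), Jam3 (0.173) and Icam2 (0.0132) came last, each overlapping with the next.

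The summed level of the 9 genes was 52.2 ± 2.36 FPKM in BMDM and 171 ± 16.1 in BSM. Cd44 made up 80.2% ± 3.92 of the sum in BMDM and 0.166% ± 0.0362 in BSM. F11r made up 0.571% ± 0.422 in BMDM and 71.0% ± 6.08 in BSM. The Selplg share, 10.6% ± 2.22 and 11.5% ± 1.99, differed by less than its spread (exact permutation p = 0.6). Such shares within a library do not move with a constant factor for each library, while quantile normalization can change them.

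**Figure D3:**
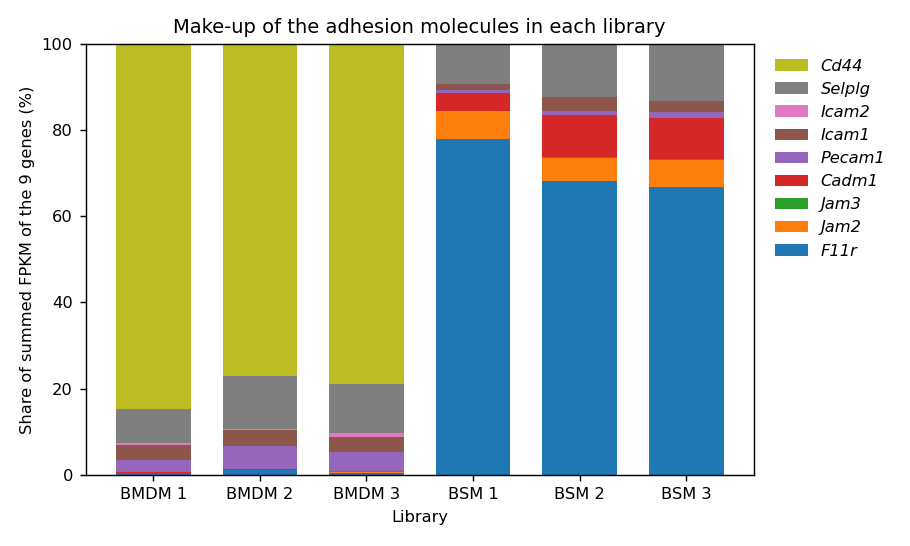
Share of each adhesion molecule in the summed FPKM of the 9 genes, as stacked bars to 100% for each library. Cd44 filled between 77.1% and 84.6% of each BMDM bar, and F11r between 66.9% and 78.0% of each BSM bar.

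The differences were also read under other scalings, because BMDM libraries summed to 2.50 times as much FPKM as BSM libraries. Over the 6364 tested genes the median difference was 0.81 on the log2 scale as deposited, and it came to 0.14 with the upper quartile made equal, 0.02 with quantile normalization and -0.23 with equal sums. Calls higher in BMDM were 83.1% of all calls as deposited and 56.7%, 52.9% and 37.9% under those scalings. The median was -2.53 over the 6 tested members and -0.81 over all 9. Each of the 6 kept its direction and its call under all 3 scalings, with F11r between -7.48 and -7.09 and Cd44 between 4.19 and 4.59. Of the members that were not tested, Jam3 and Icam2 kept their sign and Pecam1 did not.

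**Figure D4:**
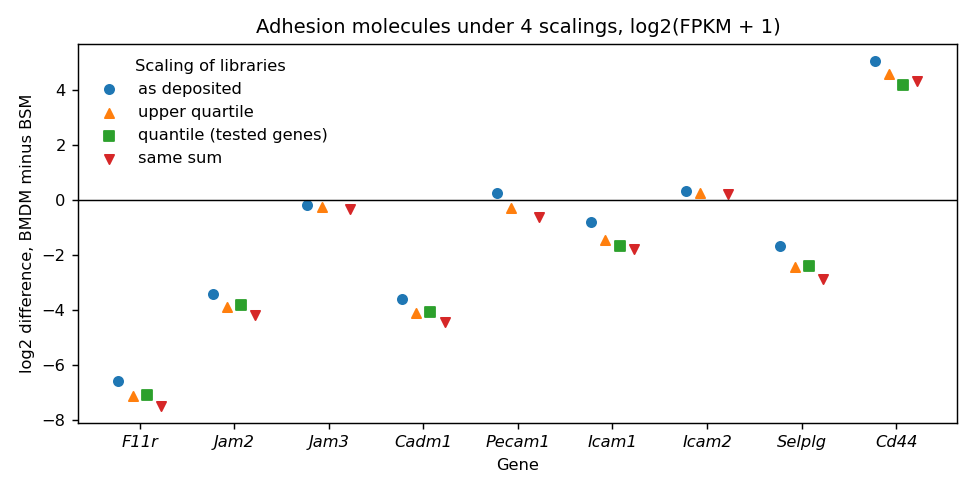
Difference of each adhesion molecule, BMDM minus BSM on log2(FPKM + 1), as deposited and under 3 other scalings of the libraries (quantile normalization used tested genes only). Pecam1 was at 0.27 as deposited and at -0.59 with equal sums, while the other 8 genes stayed on their side of 0.

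The partners of these molecules were followed through 4 lists of 56 genes in all, of which 21 reached the minimum. Among these, 12 were called higher in BMDM and 4 higher in BSM by FPKM, and 11 and 4 were called by both tables. Over all tested genes 45.3% and 9.22% were called in these directions by FPKM. With quantile normalization the counts were 9 and 6, beside 1378 and 1227 of the 6364 tested genes. With equal sums they were 7 and 6, beside 968 and 1585. Some of the 21, such as Tjp1 and Fn1, reached the minimum only in their higher cell type. These counts are thus descriptions.

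Among 24 other junction and immunoglobulin-superfamily genes, 4 were tested, with a median log2 fold change of 1.10 beside 0.81 over all tested genes. By ALEXA-Seq the median of this list was 0.12, beside 0.84 over all tested genes. There Pvr (-1.65) was tested in place of Mllt4, so the medians cover different genes. Tjp1, which encodes the scaffold protein ZO-1 that binds JAM-A, was at 0.0407 ± 0.0543 FPKM in BMDM and 40.5 ± 15.6 in BSM, a log2 fold change of -5.26 (limma, adjusted p = 9.59e-06). Alcam, which encodes the adhesion molecule CD166, was at 5.48 ± 0.399 and 0.0666 ± 0.0578 FPKM, with a fold change of 2.60 in the other direction. Mllt4, the gene of the junction scaffold afadin, was called higher in BMDM (1.28, limma, adjusted p = 0.0339) but lost its call under each of the 3 scalings. Vcam1, the ligand of VLA-4, did not pass (0.92, limma, adjusted p = 0.164). The other JAM-A scaffold partners were scarce, with Pard3 at 0.00117 FPKM in BMDM and 0 in BSM, and Mpdz at 0 and 0.00415.

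Of 8 integrin genes, 6 were tested, with a median of 1.88 by FPKM and, over 7 tested, of 0.68 by ALEXA-Seq. By FPKM 3 were called higher in BMDM and 1 higher in BSM, beside 45.3% and 9.22% of all tested genes. By ALEXA-Seq the counts were also 3 and 1, beside 37.1% and 10.9%. Itgal, the alpha chain of LFA-1 that binds ICAM-1, ICAM-2 and JAM-A, was at 10.1 ± 0.283 FPKM in BMDM and 0.0229 ± 0.0310 in BSM (log2 fold change 3.44). Itga4, the alpha chain of VLA-4 that binds JAM-B, was at 38.9 ± 8.70 and 0.615 ± 0.515 FPKM (4.65). Both integrin alpha chains were higher in BMDM while F11r and Jam2 were higher in BSM. Itgb2, the beta chain of LFA-1 and Mac-1, was at 91.8 ± 9.71 and 31.0 ± 3.26 FPKM (1.54), a call lost with equal sums (limma, adjusted p = 0.302). Itgav, the alpha chain of the vitronectin receptor, was higher in BSM, at 39.2 ± 6.16 against 10.6 ± 3.78 FPKM (-1.83). Itgam, the alpha chain of Mac-1 whose product CD11b was used in the sort, did not pass. Its FPKM was 132, 109 and 124 in BMDM and 176, 0 and 100 in BSM, where replicate 2 was listed at 0. The Itgam fold change by FPKM, 2.22, takes in this 0 and enters the list median of 1.88. By ALEXA-Seq Itgam was at 1646 ± 155 in BMDM and 2274 ± 729 in BSM, a log2 fold change of -0.41 that did not pass either (limma, adjusted p = 0.245), so the sign differed between the tables. Itgb1 did not pass either (0.80, limma, adjusted p = 0.12), and its sign turned with equal sums.

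Of 10 selectin and selectin-ligand glycosylation genes, 4 were tested by FPKM, with a median of -0.72. None was called higher in BMDM and 2 were called higher in BSM, beside 45.3% and 9.22% of all tested genes. By ALEXA-Seq 5 were tested, with 1 called higher in BMDM and 2 in BSM, beside 37.1% and 10.9%. St3gal4, a sialyltransferase gene, was the 1 higher in BMDM (3.89, limma, adjusted p = 0.00675). By FPKM it was under the minimum, at 1.56 ± 0.465 in BMDM and 0.0919 ± 0.0801 in BSM. St3gal6, a sialyltransferase of selectin ligands, was at 2.42 ± 0.954 FPKM in BMDM and 147 ± 90.2 in BSM (-5.32). Gcnt1, which builds the branched glycans PSGL-1 carries, was at 7.45 ± 0.203 and 14.3 ± 1.53 FPKM (-0.85). Fut7, the fucosyltransferase of selectin ligands, was not tested, at 0.623 ± 0.542 FPKM in BMDM and 0.00283 ± 0.00490 in BSM. The selectin genes Selp and Sele were at 0 in BSM and under 0.256 FPKM on average in BMDM.

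Of 14 cytoplasmic linker and hyaluronan genes, 7 were tested and all 7 were called higher in BMDM, with a median of 1.96, beside 45.3% of all tested genes called in that direction. Ezr, Vcan, Fn1 and Ptpn11 reached the minimum in BMDM only, so this count is a description. Fn1 was also counted among the marrow monocyte markers. With equal sums, 4 of the 7 kept the call, beside 968 of the 6364 tested genes called higher in BMDM. Msn, Ezr and Rdx encode moesin, ezrin and radixin, which tie CD44, PSGL-1 and the ICAMs to actin. Msn was at 162 ± 30.2 FPKM in BMDM and 40.7 ± 8.72 in BSM (1.97), Ezr at 3.30 ± 1.52 and 0.0581 ± 0.0596 (1.96) and Rdx at 21.5 ± 4.53 and 8.06 ± 3.55 (1.38). The matrix genes Fn1 (fibronectin, 6.99) and Vcan (versican, 3.31), the latter a hyaluronan-binding proteoglycan, had the widest gaps of this list. Ptpn6 and Ptpn11, phosphatases that bind the PECAM-1 tail, differed by 1.93 and 1.02. The calls of Rdx and Ptpn11 were lost under all 3 scalings and that of Ptpn6 with equal sums, while Fn1, Vcan, Ezr and Msn passed under each.

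**Figure D5:**
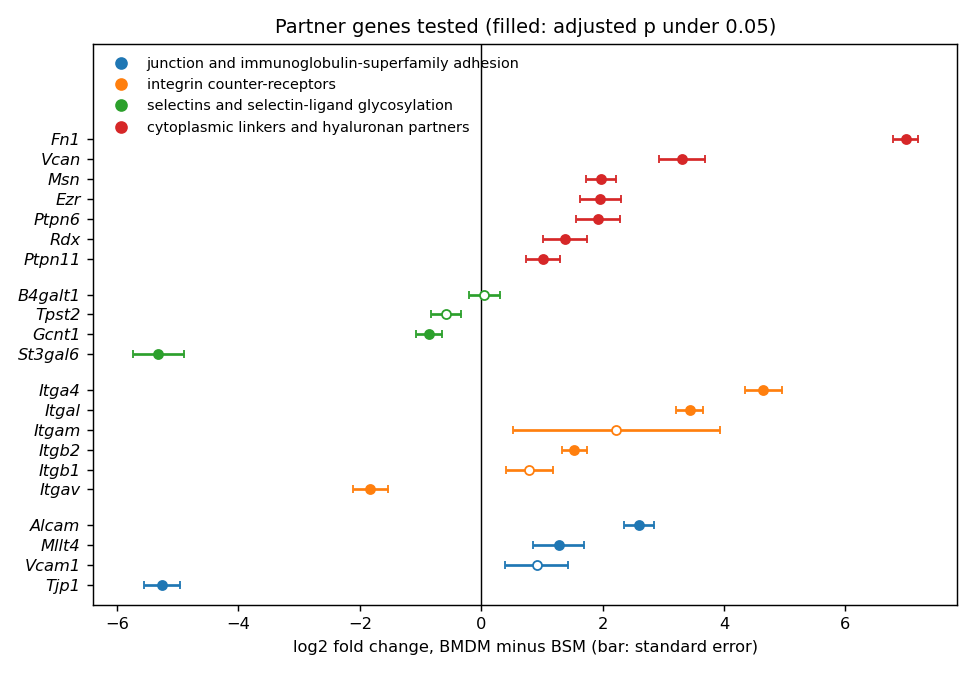
Fold change of the 21 tested partner genes by list, BMDM minus BSM on log2(FPKM + 1), with bars for the standard error and filled points where the adjusted p was under 0.05. All 7 linker and hyaluronan genes lay to the right of 0, and Tjp1 and St3gal6 lay farthest to the left.

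Several members are also made by cells that a sort could hold. None of the 9 endothelial markers reached the minimum. Their summed level was 0.150 to 0.268 FPKM in BSM and 0.0860 to 0.908 in BMDM, beside an F11r level of 102 or more in each BSM library. Of these markers, Cldn5 and Tie1 were at 0 in every BSM library, while Kdr was higher in each BSM library (0.268, 0.145 and 0.114 FPKM) than in any BMDM library (0.0237, 0 and 0.0437). The part of endothelial RNA in the results was not tested. Of 7 platelet and megakaryocyte markers, 2 were tested, and the list summed to 2.38 to 3.70 FPKM in BSM and 1.60 to 8.13 in BMDM. Gp1ba, a platelet glycoprotein gene, was called higher in BSM, like F11r, at 2.87 ± 0.783 against 0.911 ± 0.188 FPKM (limma, adjusted p = 0.0168), also under the 3 scalings. Ppbp, a platelet chemokine gene, did not pass by FPKM (limma, adjusted p = 0.0863), and Gp6 was at 0 in all 6 libraries. The part of platelets in the results was not tested. Granulocyte markers summed to 46.1, 327 and 82.4 FPKM in BMDM and to at most 0.116 in BSM. In BMDM replicate 2 the early granule genes Mpo and Elane, which myeloid progenitors also express, made up 181 and 56.0 FPKM of this sum. Ngp, of the same list, made up 77.1 FPKM there, beside 2.44 and 3.44 in replicates 1 and 3. Camp, Ltf and Cxcr2 were also highest in replicate 2. The gate left out Ly6G-positive cells. The BMDM library with the highest granulocyte sum, replicate 2, had the lowest Cd44 level and the highest F11r level of the 3, and the part of these cells in the results was not tested. Lymphocyte markers summed to 0.230 to 3.16 FPKM in BMDM and at most 0.0793 in BSM, and erythroid markers to 0.876 to 3.09 and at most 0.147. Astrocyte markers and the 4 neuronal markers found in the table summed to at most 0.249 FPKM in any library. Of 7 oligodendrocyte markers only Mbp was tested, and it was higher in BMDM (log2 fold change 2.04).

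The tested genes nearest to each member, by Euclidean distance over the log2(FPKM + 1) values of the 6 libraries, are given as likeness of level alone. F11r lay nearest to Egr1, an immediate-early transcription factor (0.377), and to C1qb, a complement subunit (0.644). Jam2 lay nearest to Col27a1, a collagen (0.390), and to Tspan7, a tetraspanin (0.414). Cadm1 lay nearest to the receptor gene Gpr165 (0.329) and to Sall1, a microglial transcription factor (0.538). Selplg lay nearest to the kinase gene Bmp2k (0.520) and the linker histone gene Hist1h1c (0.841). Icam1 lay nearest to the potassium channel gene Kcnk6 (0.486) and 4933403F05Rik (0.515), and Cd44 to Iqgap2, a scaffold protein gene (0.516), and Ms4a4c (0.543). For Pecam1, which was itself under the minimum, they were Ino80e (0.401) and Slc9a7 (0.431). For Jam3 and Icam2 no tested gene lay within 1.75, since tested genes reached levels that these did not.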

How the data were processed

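RNA of sorted BMDM and BSM was amplified and sequenced as paired ends, with 3 libraries per cell type. Per the labels and methods, the authors aligned reads with TopHat 1.3.1 and Bowtie 0.12.7 to mm9 and computed FPKM per gene with Cufflinks 1.0.3. A second deposited table holds ALEXA-Seq normalized signal per gene, whose scale is not given in the sources used here. CASAVA 1.7.0 is also named in the submitters' notes. Columns of the authors' own comparisons were not used. The values were put on log2(value + 1) here, tested with limma 3.58.1 (R 4.3.3, mean-variance trend) and adjusted by Benjamini-Hochberg. Genes were tested by FPKM where at least 1 library reached 3, leaving 6364 genes, and by ALEXA-Seq the same number of genes with the highest signal. The members and lists were chosen with earlier results of these data known. Named were the 9 members, their partners, up to 5 list genes called in both tables, the 2 nearest genes of each member, and markers. The replicate numbers were not used as pairs in the main test. Deviations of same-numbered libraries correlated at -0.019, -0.0084 and 0.13, and only for replicate 3 was the same-numbered BSM library the best match. With 3 libraries per cell type this cannot show whether the sets were paired. The deposited tables hold no read counts and the study's read totals were not used, so no counting intervals were given, and p-values measure the spread between libraries labelled biological replicates. Code was tested on simulated data. Copies were searched with blastn 2.17.0. Alternatives covered the pseudocount, the minimum, scaling, the trend, library weights, a replicate block and leaving out each library.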

Additional observations from a re-analysis of the deposited data

How the results depend on the processing

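F11r, Jam2, Cadm1, Selplg and Cd44 kept direction and call in all 15 alternatives by FPKM and all 9 by ALEXA-Seq, and Icam1 kept its call in 7 and 6 of them. Genes called higher in BMDM by FPKM, 2883 as reported, were 1379 with upper quartile scaling, 1378 with quantile normalization and 968 with equal sums. Genes called higher in BSM, 587 as reported, were 1051, 1227 and 1585, and 881 with library quality weights. By ALEXA-Seq, quantile normalization gave 1439 and 1349 in place of 2359 and 691, and leaving out 1 library gave 1971 to 3984 calls in all (3050 as reported) and 1452 to 3082 higher in BMDM, lowest without BMDM replicate 3. Without a minimum, 2 members in place of 1 were called higher in BMDM by ALEXA-Seq, Icam2 being added. The difference of Icam2 and Icam1 between cell types was 3.28 by ALEXA-Seq and 1.15 by FPKM. Ordered by medians, or without BMDM replicate 2, 5 of 9 members kept their rank in BMDM. With the replicate block, 2905 and 566 genes were called by FPKM and 2251 and 634 by ALEXA-Seq, and no member other than Icam1 by FPKM lost its call. Causes were not tested. The tables hold no read counts, so levels near 0, as of Jam3 and Icam2 in BSM, were given no counting floor.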

Other observations

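Low ALEXA-Seq values stood most often in 1 ratio between BMDM replicate 1 and each other library, a ratio shared by as few as 18 of the 195 genes compared (BSM replicate 1). Multiplied by that ratio, the Icam2 signal was 0.157 in each of the 3 BSM libraries and 3.30, 1.97 and 6.69 in BMDM. Of the partner lists, the following genes were chosen after their values were seen. Igsf5, which encodes a further JAM-family protein, averaged 1.34 ± 1.27 FPKM in BSM and 0.00537 ± 0.00931 in BMDM, with overlapping ranges. Lyve1, a hyaluronan receptor like CD44, averaged 0.810 ± 0.956 FPKM in BSM and 0.00571 ± 0.00587 in BMDM, also with overlapping ranges. By ALEXA-Seq the Igsf5 signal was near 0 in both cell types, at 0.0784 ± 0.102 in BSM and 0 in BMDM. The Lyve1 signal was 15.0 ± 17.9 in BSM and 0.125 ± 0.109 in BMDM. The Igsf5 level in BSM thus rests on the FPKM values alone.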
